A study of Mus musculus with 43 samples.

Results

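The 10 genes described here encode mouse proteins of the PIWI and piRNA pathway: Piwil1, Piwil2, Piwil4, Mael, Mov10l1, Asz1, Pld6, Ddx4, Henmt1 and Gtsf1. They were found by their GENCODE vM21 symbol, and all 10 of 10 matched one gene identifier among the 55401 in each RNA table. Their RNA was measured in 10 libraries at postnatal day 7 (P7), and their promoters were looked up in 33 CUT&Tag peak lists for 7 histone marks at P7 and P14. CUT&Tag is an assay in which an antibody directs a transposase to chromatin that carries a mark. The study asked what loss of Prmt1, the main enzyme for asymmetric dimethylation of arginine, does to spermatogonia, the mitotic germ cells of the testis.

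All mice were of the C57BL/6J background. Prmt1-dKO mice carried floxed Prmt1 alleles (Prmt1 lox/lox) and the Ddx4-CreERT2 knock-in, and received tamoxifen on 3 days before collection at P7. The knock-in places EGFP and CreERT2 on the Ddx4 gene, so one of the 10 members drives both the deletion and the sorting reporter. Bulk RNA-seq was made from whole testis (3 WT and 3 Prmt1-dKO libraries), although the labels name spermatogonia as its cell type. Smart-seq2 was made from EGFP-positive cells sorted from testis (2 WT and 2 Prmt1-dKO libraries). The sorted controls labelled WT were, by the study's methods, heterozygous for the Ddx4 reporter and for the floxed allele (Ddx4-GFP-CreERT2-Prmt1 +/lox). The study places the RNA collection at P7 after tamoxifen without naming the genotypes injected, and whether the WT testes of the bulk libraries carried the knock-in is not given in the sources used here. The peak lists are WT at both ages, with one mark, H4R3me2s, also measured in Prmt1-dKO at P7. The P14 lists are labelled as spermatogonia in their titles and as spermatocytes in their characteristics, and the peak names inside the 3 P14 lists of H4R3me2s begin with SD17, not with 14.

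PIWI proteins bind piRNAs, small RNAs that guide them to transposon transcripts and keep transposons silent in the male germ line. Precursor RNAs are unwound, cut at the outer membrane of mitochondria, trimmed and methylated at their end, and amplified in perinuclear granules by PIWI proteins cutting each other's targets. Piwil2 (MILI) and Piwil4 (MIWI2) act in fetal and neonatal germ cells, Piwil2 not in these alone. Piwil1 (MIWI) is known from meiotic and postmeiotic cells. Loss of most of these genes makes male mice sterile.

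The bulk libraries held 12396345 to 16598249 expected counts and the Smart-seq2 libraries 15610392 to 18547103. Prmt1 itself had 652, 604 and 638 TPM (a length-scaled level that sums to the same total in every library) in the WT testes and 410, 433 and 402 TPM in the Prmt1-dKO testes, a log2 fold change of -0.49 (SE 0.13, FDR = 0.0334, edgeR's quasi-likelihood test). That call was lost with a replicate block (FDR = 0.0814) and in 5 of 6 fits without 1 library (FDR 0.0696 to 0.105), all but that without the second Prmt1-dKO library, while every Prmt1-dKO library stayed below every WT library in TPM. In sorted cells it had 350 and 239 TPM in WT and 179 and 151 TPM in Prmt1-dKO, a log2 fold change of -0.88 (SE 0.26, FDR = 0.133 by edgeR, 0.0172 by DESeq2). The floxed segment is only part of the gene, so this checks the labels in part. Germ cell markers (14 genes) summed to 1651 to 1915 TPM in WT testis, 1623 to 1681 in Prmt1-dKO testis, 3375 to 3484 in WT sorted cells and 2722 to 2772 in Prmt1-dKO sorted cells. In the sorted WT libraries 6 of 6 macrophage, 4 of 4 endothelial and 5 of 6 Leydig markers were listed at 0. The 6 macrophage markers summed to 51.8 TPM in each of the 2 sorted Prmt1-dKO libraries, with 1 of them at 0 in both. The 10 Sertoli markers summed to 255 to 283 TPM in sorted WT and 343 to 472 TPM in sorted Prmt1-dKO libraries. The 4 peritubular markers were lower there, at 4.61 to 7.95 TPM in sorted WT and 3.18 to 3.45 TPM in sorted Prmt1-dKO libraries. The study describes its replicates as biological, but the sources used here do not say how many animals went into a library, so the p-values below measure the spread between these samples.

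RefSeq promoter windows of 300 bases (250 before a transcript start and 50 from it on, GRCm38.p6) were at hand for 9 of the 10 members, with 2 windows each for Piwil4 and Pld6. Their median number of CpG dinucleotides was 18, against 7 over all 32851 windows of 27025 symbols. Ddx4 had the most, 38, and the Henmt1 window had 31. The windows were searched on both strands for an E-box (CACGTG), a MYB-type motif (TAACNG), an E2F-type motif (TTCCCGC) and a cyclic AMP response element (TGACGTCA). The E-box was found in windows of 5 members, Piwil1, Mael, Mov10l1, Pld6 and Ddx4, and in 7.15% of all windows. The MYB-type motif was found in windows of 3 members, Piwil1, Mael and Mov10l1, and in 23.3% of all windows. The E2F-type motif was found in the Ddx4 window and in 4.60% of all windows, and the cyclic AMP element in 0 members and in 1.79% of all windows. The counts are per member, with up to 2 windows each, while the shares are per window and not matched for CpG. Each match is a run of letters and says nothing of binding.

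The windows of the 3 genes with a MYB-type match and of the 2 genes called in bulk RNA-seq, Ddx4 and Gtsf1, are shown 5′ to 3′ on the strand of the gene, with motif matches in capitals. They lie at chr5:128735996-128736295 on the plus strand (Piwil1), chr1:166238695-166238994 on the minus strand (Mael), chr15:88982744-88983043 on the plus strand (Mov10l1), chr13:112652261-112652560 on the minus strand (Ddx4) and chr15:103430378-103430677 on the minus strand (Gtsf1).
Piwil1: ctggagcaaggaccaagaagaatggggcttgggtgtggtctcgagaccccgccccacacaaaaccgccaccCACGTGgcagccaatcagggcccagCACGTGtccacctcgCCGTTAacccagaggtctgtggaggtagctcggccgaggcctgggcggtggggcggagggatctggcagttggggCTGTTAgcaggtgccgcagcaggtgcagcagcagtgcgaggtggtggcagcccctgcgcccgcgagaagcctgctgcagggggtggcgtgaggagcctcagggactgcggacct
Mael: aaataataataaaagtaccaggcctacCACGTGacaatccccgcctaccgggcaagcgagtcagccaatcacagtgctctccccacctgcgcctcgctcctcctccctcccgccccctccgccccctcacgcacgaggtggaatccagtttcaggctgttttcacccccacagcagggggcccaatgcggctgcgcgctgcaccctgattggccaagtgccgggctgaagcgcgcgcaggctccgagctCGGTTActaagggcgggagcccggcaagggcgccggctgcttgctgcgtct
Mov10l1: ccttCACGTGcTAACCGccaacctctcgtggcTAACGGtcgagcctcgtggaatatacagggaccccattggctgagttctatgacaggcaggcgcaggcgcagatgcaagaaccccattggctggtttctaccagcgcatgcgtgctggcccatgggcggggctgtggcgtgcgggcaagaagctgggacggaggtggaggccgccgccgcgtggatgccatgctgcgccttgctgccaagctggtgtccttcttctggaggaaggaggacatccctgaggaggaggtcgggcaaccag
Ddx4: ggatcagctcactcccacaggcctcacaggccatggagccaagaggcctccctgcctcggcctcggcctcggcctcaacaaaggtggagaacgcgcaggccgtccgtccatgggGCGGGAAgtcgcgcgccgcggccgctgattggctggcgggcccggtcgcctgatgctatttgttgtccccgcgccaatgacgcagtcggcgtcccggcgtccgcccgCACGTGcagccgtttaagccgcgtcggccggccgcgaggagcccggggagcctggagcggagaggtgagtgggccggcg
Gtsf1: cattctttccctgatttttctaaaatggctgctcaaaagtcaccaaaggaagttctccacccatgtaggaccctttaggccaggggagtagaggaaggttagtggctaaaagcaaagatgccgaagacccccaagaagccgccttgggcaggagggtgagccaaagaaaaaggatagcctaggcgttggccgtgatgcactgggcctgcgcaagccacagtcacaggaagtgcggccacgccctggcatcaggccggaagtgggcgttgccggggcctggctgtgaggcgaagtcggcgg
Positions of first bases are given from the transcript start, with negative numbers upstream. In the Piwil1 window the E-boxes begin at -179 and -154 and the MYB-type matches at -139 and -64. In the Mov10l1 window the E-box begins at -246 and the MYB-type matches at -239 and -218, so that E-box and first MYB-type match nearly touch. In the Mael window the E-box begins at -223 and the MYB-type match at -1, so that it spans the start. In the Ddx4 window the E2F-type match begins at -136 and the E-box at -29. The Gtsf1 window held none of the 4 motifs.

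Levels are first compared in WT testis, in TPM, which is scaled by transcript length. Mael, a granule protein needed for transposon silencing, was the highest member with 149 ± 6.20 TPM (SD, n = 3). Ddx4, the germ cell RNA helicase VASA, followed with 88.5 ± 8.66 TPM, and Piwil2 had 78.6 ± 11.7 TPM. The ranges of Ddx4 and Piwil2 overlapped, so their order is not beyond the spread. Mov10l1, the RNA helicase that feeds precursors into processing, had 53.1 ± 5.38 TPM. Gtsf1, a zinc finger partner of PIWI proteins, had 35.1 ± 4.10 TPM, Asz1, a mitochondrial scaffold protein, 34.3 ± 4.16 TPM, and Pld6 (MitoPLD), the mitochondrial nuclease of precursor cutting, 33.6 ± 3.09 TPM. These 3 levels overlapped each other in turn. Henmt1, the methyltransferase of piRNA ends, had 16.0 ± 2.38 TPM. Piwil4 (5.90 ± 0.13 TPM) and Piwil1 (2.62 ± 0.82 TPM) were the lowest, and neither overlapped its neighbour.

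In WT sorted spermatogonia the order differed, with Mov10l1 at 286 ± 2.52 TPM, Gtsf1 at 234 ± 121 TPM and Mael at 178 ± 13.1 TPM (SD, n = 2). The 2 Gtsf1 values, 319 and 148 TPM, spanned those of the other two. Ddx4 had 98.7 ± 25.3 TPM and Piwil2 69.7 ± 2.80 TPM. Piwil4 (7.01 and 0.32 TPM) and Piwil1 (3.18 and 0.97 TPM) were again lowest and overlapped. The 2 sorted WT libraries differed in these genes more than the other groups did. The higher of the pair was a median 1.91 times the lower over the 10 members, with a maximum of 21.9 times for Piwil4, against a median of 1.57 over 12222 expressed genes. In the sorted Prmt1-dKO pair the same median over the members was 1.10.

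**Figure D1:**
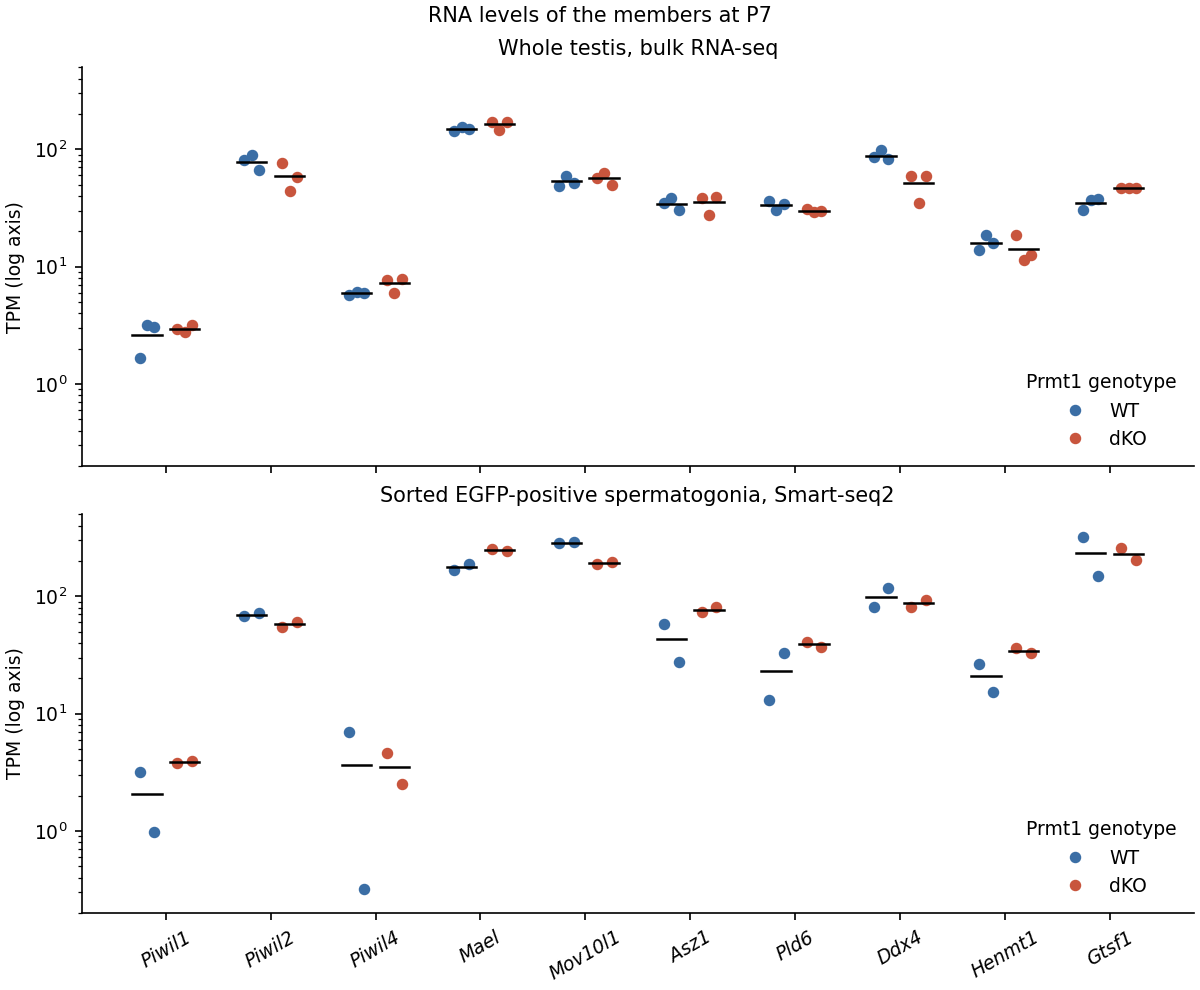
RNA level of each member in TPM (log axis) in whole testis (upper panel) and sorted spermatogonia (lower panel), with 1 point per library and a bar at the mean. Ddx4 and Gtsf1 separate by genotype in whole testis, and Piwil4, Piwil1 and Pld6 show the wide spacing of the 2 sorted WT libraries.

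The comparison of WT sorted cells with WT testis asks which members the sort concentrated. Members are set beside all 16872 genes tested, of which 18.7% were at least 2-fold higher and 29.8% at least 2-fold lower in sorted cells at a false discovery rate (FDR) below 0.05. Of the 10 members, 2 were higher by that rule and 0 lower. Gtsf1 rose from 30.4, 37.3 and 37.7 TPM in testis to 319 and 148 TPM in sorted cells, a log2 fold change of 3.08 (SE 0.37, FDR = 0.00295 by edgeR). Mov10l1 rose from 48.5, 59.0 and 51.8 TPM to 284 and 287 TPM, a log2 fold change of 1.76 (SE 0.13, FDR = 0.0012 by edgeR). Both were well above the testis libraries in each sorted library. Mael was higher by less than 2-fold, with a log2 fold change of 0.60 (SE 0.09, FDR = 0.00568 by edgeR).

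The other 7 members did not pass the test. Piwil2 had 81.0, 88.9 and 65.9 TPM in WT testis and 67.7 and 71.7 TPM in WT sorted cells, a log2 fold change of -0.20 (SE 0.11, FDR = 0.178 by edgeR). For Ddx4, whose allele drives the sorting reporter, the log2 fold change was 0.49 (SE 0.18, FDR = 0.0701 by edgeR). Over the 10 members the median log2 fold change was 0.50 (0.21 without the first sorted WT library), against -0.39 over all genes tested. Cell source and library protocol differ together here and cannot be told apart, and whether the reporter allele also differs is not given. The 10 Sertoli markers summed to 4845 to 5245 TPM in WT testis and to 255 to 283 TPM in WT sorted cells.

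In whole testis, 2 of the 10 members changed with loss of Prmt1 at an FDR below 0.05 and 0 also reached 2-fold. Over the 16554 genes tested the shares were 19.1% and 7.10%, so the members' count lies near the background. The median log2 fold change of the members was 0.14, against 0.02 over all genes. In TMM-scaled CPM (counts scaled to the size of the library), the groups did not overlap for 5 of 10 members (4 higher and 1 lower in Prmt1-dKO), against 40.8% of all genes. Fold changes here are those of TMM-scaled counts, and the ratio of mean TPM differed from them by a median of -0.16 (log2, over 14495 genes) in whole testis and -0.22 (12548 genes) in sorted cells. The sign differed between the scales for 3 of 10 members in whole testis and 4 of 10 in sorted cells.

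Ddx4 fell. It had 85.2, 98.3 and 81.9 TPM in the WT testes and 59.0, 34.9 and 59.6 TPM in the Prmt1-dKO testes, from 2218, 2762 and 2346 counts and 1450, 934 and 1761 counts. Every Prmt1-dKO library lay below every WT library, and the second Prmt1-dKO library was the lowest. The log2 fold change was -0.67 (SE 0.16, FDR = 0.0184 by edgeR), and leaving out any 1 of the 3 WT libraries raised its FDR above 0.05 ( 0.0531 to 0.0885). In whole tissue, fewer germ cells and less RNA per germ cell cannot be told apart. Whether the WT testes carried the knock-in allele of Ddx4 is not given. If they did not, that allele cannot be told apart from loss of Prmt1 in this comparison. Of the 14 germ cell markers, 2 were called higher and 0 lower in Prmt1-dKO testis.

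Gtsf1 rose. It had 30.4, 37.3 and 37.7 TPM in the WT testes and 46.4, 46.8 and 46.6 TPM in the Prmt1-dKO testes, from 145, 197 and 204 counts and 216, 250 and 276 counts. The 3 Prmt1-dKO libraries lay close together and above the WT libraries. The log2 fold change was 0.62 (SE 0.16, FDR = 0.0276 by edgeR), and the call was lost without any 1 of the WT libraries (FDR 0.0566 to 0.128), without the third Prmt1-dKO library (FDR 0.0517) and with a replicate block (FDR 0.0526). Several markers of somatic cells changed in the same libraries. The 6 Leydig markers summed to 624 to 724 TPM in WT and 164 to 185 TPM in Prmt1-dKO (1 called higher, 4 lower). The 4 peritubular markers summed to 806 to 873 and 278 to 492 TPM (0 called higher, 3 lower), and the 10 Sertoli markers to 4845 to 5245 and 3235 to 3577 TPM (0 called higher, 5 lower). The 6 macrophage markers summed to 103 to 118 TPM in WT and 127 to 156 TPM in Prmt1-dKO (1 called higher, 0 lower), and the 4 endothelial markers to 63.8 to 74.8 and 52.2 to 77.8 TPM (1 called higher, 1 lower). Their part in the levels of Gtsf1 and Ddx4 was not tested.

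The other 8 members were not called in whole testis. Among the PIWI proteins, Piwil4 had 5.77, 6.03 and 5.91 TPM in WT and 7.75, 6.01 and 7.89 TPM in Prmt1-dKO, a log2 fold change of 0.39 (SE 0.13, FDR = 0.0678 by edgeR). Its second Prmt1-dKO library was within the WT range in TPM. Piwil1 had 1.67, 3.15 and 3.03 TPM in WT and 2.95, 2.75 and 3.16 TPM in Prmt1-dKO, a log2 fold change of 0.49 (SE 0.23, FDR = 0.169 by edgeR). Piwil2 had 81.0, 88.9 and 65.9 TPM in WT and 76.3, 43.9 and 57.8 TPM in Prmt1-dKO, a log2 fold change of -0.20 (SE 0.13, FDR = 0.336 by edgeR). The TPM ranges of the 2 genotypes overlapped for each PIWI gene.

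Mael had 143, 155 and 150 TPM in WT and 169, 146 and 172 TPM in Prmt1-dKO testes, a log2 fold change of 0.29 (SE 0.10, FDR = 0.0706 by edgeR). Without the second Prmt1-dKO library both Mael (FDR = 0.0212) and Piwil4 (FDR = 0.0393) passed the threshold by edgeR, making 4 members called, against 31.6% of all genes in that fit. The log2 fold changes of the 4 biogenesis genes in whole testis were -0.01 (SE 0.12) for Mov10l1, 0.19 (SE 0.13) for Asz1, 0.09 (SE 0.13) for Pld6 and 0.00 (SE 0.18) for Henmt1, and those of Mov10l1, Pld6 and Henmt1 had the other sign as ratios of mean TPM. Piwil1, Piwil4 and Henmt1 overlap annotated genes on the other strand, and the strand setting of the counting is not given in the sources used here, so reads of those pairs cannot be told apart.

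**Figure D2:**
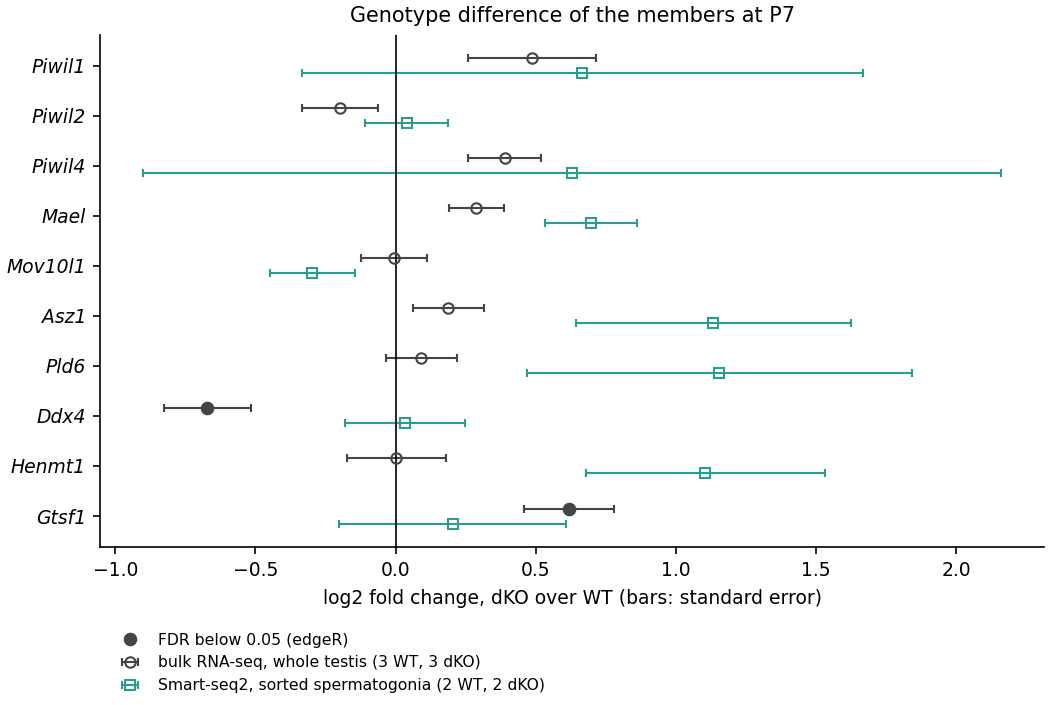
Log2 fold change of each member in Prmt1-dKO over WT (points) with its standard error (bars), in bulk RNA-seq of whole testis (circles) and Smart-seq2 of sorted spermatogonia (squares). Filled points passed an FDR below 0.05, which held for Ddx4 (-0.67) and Gtsf1 (0.62) in whole testis and for 0 members in sorted cells.

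In sorted spermatogonia edgeR called no member and 0.00% of the 16443 genes tested there (smallest FDR 0.0774), with 23.8% at an unadjusted p below 0.05, and DESeq2 called 14.6% of the 16901 genes it tested. Of the 10 members, 1 had an unadjusted p below 0.05 and DESeq2 called 1, Mael in each case. The members' median log2 fold change was 0.65, against 0.15 over all genes, and it was 0.23 without the second WT library and 0.33 without the first Prmt1-dKO library. The groups did not overlap in CPM for 5 of 10 members (4 higher and 1 lower), against 56.6% of all genes.

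Mael had 169 and 187 TPM in WT and 254 and 241 TPM in Prmt1-dKO sorted cells. The genotypes did not overlap, and Prmt1-dKO was the higher. The log2 fold change was 0.70 (SE 0.16, FDR = 0.0793 by edgeR, 0.00456 by DESeq2). The biogenesis genes Asz1 (58.3 and 27.8 TPM in WT, 73.2 and 80.3 TPM in Prmt1-dKO), Pld6 (13.1 and 33.1 TPM in WT, 40.6 and 37.2 TPM in Prmt1-dKO) and Henmt1 (26.4 and 15.3 TPM in WT, 36.3 and 32.6 TPM in Prmt1-dKO) each had a log2 fold change above 1 in the fit of all 4 libraries. Their log2 fold changes were 1.13 (SE 0.49), 1.16 (SE 0.69) and 1.11 (SE 0.43), with edgeR FDR of 0.264, 0.417 and 0.216. Leaving out 1 WT library moved them, to between 0.63 (without the second) and 1.99 (without the first) for Asz1, 0.53 (without the first) and 2.35 (without the second) for Pld6, and 0.78 (without the second) and 1.58 (without the first) for Henmt1. In each of the 3 genes the 2 WT libraries lay further apart than the 2 Prmt1-dKO libraries, and the lower WT library was the first for Pld6 and the second for Asz1 and Henmt1.

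In TMM-scaled counts, Mov10l1 was the one member with a negative log2 fold change in sorted Prmt1-dKO cells. It had 284 and 287 TPM in WT and 187 and 196 TPM in Prmt1-dKO, a log2 fold change of -0.30 (SE 0.15, FDR = 0.344 by edgeR). The TPM groups did not overlap, while the scaled counts moved less. Ddx4 had 80.8 and 117 TPM in WT and 81.5 and 93.8 TPM in Prmt1-dKO, a log2 fold change of 0.03 (SE 0.22, FDR = 0.959 by edgeR). Both genotypes carried the Ddx4 reporter in these cells, which were gated on it, and the ranges overlapped.

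Gtsf1 had 319 and 148 TPM in WT and 259 and 204 TPM in Prmt1-dKO sorted cells, a log2 fold change of 0.20 (SE 0.41, FDR = 0.846 by edgeR). The WT range enclosed the Prmt1-dKO range, and the log2 fold change was 0.84 without the first WT library and -0.21 without the second. Piwil4 rested on 249 and 12 counts (WT) and 219 and 103 counts (Prmt1-dKO), with a log2 fold change of 0.63 (SE 1.53, FDR = 0.88 by edgeR). That value was 4.06 without the first WT library and -0.28 without the second. Piwil1 rested on 188 and 56 counts (WT) and 162 and 146 counts (Prmt1-dKO), with a log2 fold change of 0.67 (SE 1.0, FDR = 0.789 by edgeR) that was 1.79 (FDR = 0.0161) without the first WT library and 0.06 without the second. In both genes the 2 WT libraries lay far apart. Piwil2 had 67.7 and 71.7 TPM in WT and 54.8 and 60.4 TPM in Prmt1-dKO, lower in each, while its log2 fold change in scaled counts was 0.04 (SE 0.15). Piwil4, Ddx4 and Gtsf1 also had the other sign as ratios of mean TPM (-0.05, -0.17 and -0.02 on the log2 scale). The call depended on single WT libraries. Without the first WT library 6 of 10 members were called, each as higher (Asz1, Gtsf1, Piwil1, Piwil4, Mael and Henmt1), against 51.2% of all genes called in either direction. Without the second 4 of 10 were, again as higher (Asz1, Mael, Pld6 and Henmt1), against 43.2%. These counts hold higher members only and the shares hold both directions, so they cannot be set against each other. In these fits the lone WT sample is assumed to vary like the other group.

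A joint fit of all 10 RNA libraries tested whether the genotype difference was the same in both assays. No member passed at an FDR below 0.05, against 19.0% of the 19608 genes tested. An unadjusted p below 0.05 was reached by 3 of 10 members, against 32.8% of all genes, and DESeq2 called 0 of 10, against 23.8% of the 20385 genes it tested. The lowest values were Mael (interaction log2 of 0.50, SE 0.16, FDR = 0.0679), Henmt1 (1.19, SE 0.43, FDR = 0.0927) and Ddx4 (0.79, SE 0.29, FDR = 0.0947), all by edgeR. The fall of Ddx4 in whole testis is therefore not shown to differ from its difference in sorted cells. Without the second sorted WT library 3 members passed with a positive term (Ddx4, Mael and Pld6), against 35.5% of all genes with either sign, and without the first 4 did (Asz1, Piwil1, Piwil4 and Henmt1), against 41.5%.

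Beyond the members, 21 other genes of the pathway were listed: 8 Tudor-domain proteins, 4 biogenesis factors, 5 nuclear silencing factors, 2 transcription factors, and the methyltransferase Prmt5 with its partner Wdr77, which methylate PIWI proteins. In whole testis 20 were tested, of which 1 was called higher and 2 lower, 3 of 20 against 19.1% of all genes. Their median log2 fold change was 0.11, against 0.02 over all genes.

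Mybl1 (A-MYB), the transcription factor known for switching on pachytene piRNA loci and pathway genes, fell with the lowest FDR of the 3. It had 9.55, 9.35 and 6.29 TPM in the WT testes and 3.46, 2.07 and 3.81 TPM in the Prmt1-dKO testes, a log2 fold change of -1.15 (SE 0.18, FDR = 0.00396 by edgeR). In sorted cells it had 6.19 and 11.03 TPM in WT and 0.87 and 2.15 TPM in Prmt1-dKO, a log2 fold change of -2.78 (SE 0.62, FDR = 0.0774 by edgeR, 9.37e-05 by DESeq2). No WT library of either assay overlapped a Prmt1-dKO library. The interaction term was -1.54 (SE 0.45, FDR = 0.0463 by edgeR), a larger difference in sorted cells than in whole testis. The 3 members whose promoter windows held a MYB-type motif, Piwil1, Mael and Mov10l1, had log2 fold changes of 0.49, 0.29 and -0.01 in whole testis and 0.67, 0.70 and -0.30 in sorted cells. edgeR called 0 of them in either assay, and DESeq2 called Mael in sorted cells.

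Morc1, a nuclear silencing factor, rose from 14.97, 15.59 and 15.04 TPM in the WT testes to 23.0, 17.4 and 23.1 TPM in the Prmt1-dKO testes, a log2 fold change of 0.63 (SE 0.11, FDR = 0.00563 by edgeR). In sorted cells it had 25.4 and 15.6 TPM in WT and 31.9 and 34.9 TPM in Prmt1-dKO (log2 fold change 0.93, SE 0.31, FDR = 0.167 by edgeR). Dnmt3c, a DNA methyltransferase of rodent male germ cells, fell from 2.75, 1.53 and 1.58 TPM to 0.70, 0.61 and 0.09 TPM in whole testis, a log2 fold change of -1.95 (SE 0.56, FDR = 0.0413 by edgeR). Its counts were low (52, 31 and 33 against 12, 12 and 2) and it resembles Dnmt3b closely, so reads may have been split between the copies. The call was lost with a replicate block (FDR = 0.0513 by edgeR) and in 5 of the 6 fits without 1 library (FDR 0.0548 to 0.16), all but that without the second Prmt1-dKO library. In sorted cells it was listed at 0 in 3 of 4 libraries.

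In sorted cells 20 of the 21 genes were tested and 0 were called by edgeR, with 9 of 20 at an unadjusted p below 0.05, against 23.8% of all genes. The following genes were chosen after their values were seen. Spocd1, a nuclear factor of piRNA-directed DNA methylation, was at 0 counts in both WT libraries, while Prmt1-dKO had 226 and 224. In whole testis its counts were 101, 116 and 106 (WT) and 119, 122 and 164 (Prmt1-dKO), so it was present in both genotypes. Dnmt3l, the catalytically inactive partner of de novo DNA methyltransferases, had 3 and 0 counts in sorted WT cells against 125 and 88 in sorted Prmt1-dKO cells. Tdrd6, a Tudor protein of later germ cells, was at 0 in both sorted WT libraries, with 15 and 18 counts in Prmt1-dKO. The macrophage markers listed at 0 in sorted WT and present in sorted Prmt1-dKO libraries move with these genes, and 17106 and 15587 genes had a count in the WT libraries against 21404 and 20194 in the Prmt1-dKO libraries. Their part in these differences was not tested.

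Between WT sorted cells and WT testis, 6 of the 20 other pathway genes tested were at least 2-fold higher (18.7% of all genes) and 2 at least 2-fold lower (29.8%) at an FDR below 0.05. The 2 lower were Spocd1, with the counts given above, and Dnmt3l, which had 14, 13 and 24 counts in WT testis and 3 and 0 in WT sorted cells. The 6 higher were Fkbp6, Tdrd12, Tdrkh, Rnf17, Gpat2 and Tex15, named after their values were seen, with log2 fold changes of 2.55, 2.44, 2.23, 2.03, 1.97 and 1.40. The median over the 20 genes was 0.68, against -0.39 over all genes.

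**Figure D3:**
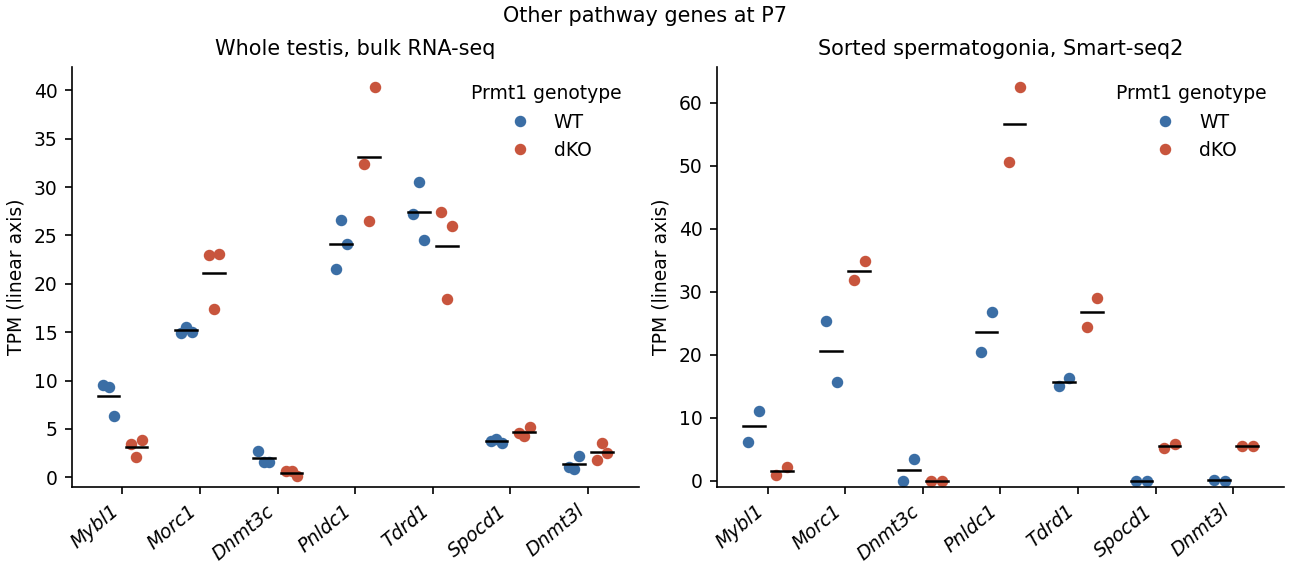
RNA level in TPM (linear axes of different range) of 7 other pathway genes in whole testis (left) and sorted spermatogonia (right), with 1 point per library and a bar at the mean. Mybl1 is lower in every Prmt1-dKO library of both assays, and Spocd1 sits at 0 in the 2 sorted WT libraries.

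The gene patterns most like that of the members were looked for over the 10 RNA libraries. The mean standardized log2(TPM + 1) profile of the 10 members was correlated with 16704 other genes of at least 1 mean TPM. The 5 highest were Gm6851 (a processed pseudogene, Pearson's r = 0.98), Ccng1 (0.97), Cct8 (0.96), Ccnb1 (0.95) and Fam76a (0.95). Libraries of one group share assay and genotype, so this is a description. The members themselves did not form one pattern, with r to their own mean of 0.97 for Henmt1, 0.93 for Asz1 and 0.85 for Mael, but 0.10 for Piwil2, 0.05 for Pld6 and -0.16 for Piwil4.

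The CUT&Tag lists show whether a peak summit lay within 3000 bp of a transcript start of a member in at least 2 lists of a group, beside the same share over 21951 protein-coding genes. Each list was called by the authors from 1 sample, and no test was run between groups of lists. A member counts as marked also where its peaks in those lists lay at different sites. H3K4me3, a mark of active promoters, marked 7 of 10 members at P7 (background 60.7%) and 9 of 10 at P14 (63.1%). Piwil4 had no such peak in any of the 4 lists, and Piwil1 had one in both P14 lists and in neither P7 list. Gtsf1 had one in 1 of 2 lists at P7 and in both at P14. The best H3K4me3 peak covered part of a RefSeq window in both lists for 5 of 9 members at P7 and for 8 of 9 at P14.

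H3K27ac, a mark of active promoters and enhancers, marked 4 of 10 members at P7 (Piwil2, Mov10l1, Pld6 and Ddx4; background 31.0%) and 9 of 10 at P14 (48.9%). The 5 members added at P14 were Piwil1, Piwil4, Mael, Asz1 and Henmt1. For Piwil4 each P14 list held 2 peaks, and the best ones, chr9:14718303-14718602 and chr9:14738870-14739150, did not share a site. At P14 Gtsf1 had a peak in 1 of 2 lists. The lists are longer at P14 than at P7, 37984 and 45817 peaks against 21974 and 23780, and with the lists of the mark cut to equal length 8 members were marked at P14 and 4 at P7 (for H3K4me3, 7 at both ages). At P7 none of the 4 stayed with peaks of q at most 0.01, while at P14 7 of 10 did.

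The strength of these peaks was compared as fold enrichment over the local background within each list, as MACS2 gave it. For H3K4me3 the best promoter peak of Piwil2 had 4.55 and 6.55 at P7 and 7.02 and 8.98 at P14. Henmt1 had 4.66 and 3.75 at P7 and 7.96 and 8.07 at P14. Pld6 had 3.75 and 7.21 at P7 and 4.69 and 6.77 at P14, so its ages overlapped. Both P14 values exceeded both P7 values for 6 of the 7 members with a peak in all 4 lists, against 47.6% of 13022 such genes. The ratio of the P14 mean to the P7 mean had a median of 1.44 over these members and 1.09 over those genes. For H3K27ac the same held for 4 of 4 members, against 71.0% of 6461 genes, with median ratios of 1.51 and 1.32. The suspensions were filtered to remove Sertoli cells, and the study describes the P7 filtrate as almost entirely germ cells. The stages of the germ cells differ between the ages, the read depth of the lists is unknown, and their part was not tested.

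**Figure D4:**
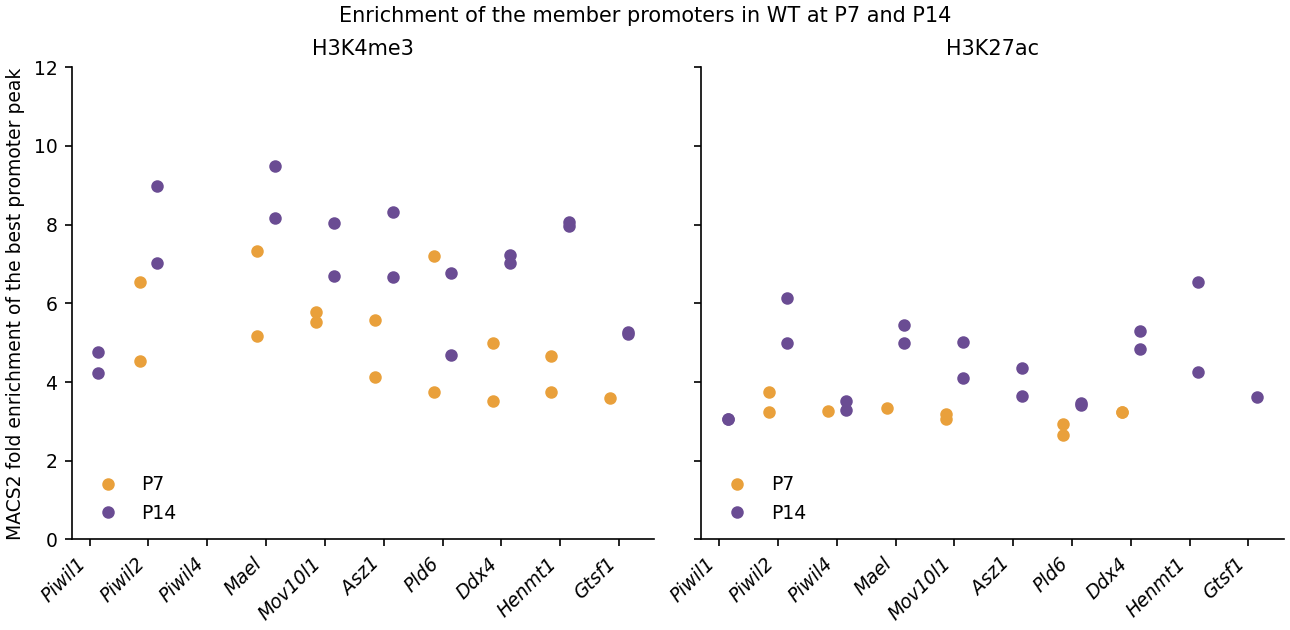
MACS2 fold enrichment of the best promoter peak of each member for H3K4me3 (left) and H3K27ac (right) in the WT lists of P7 and P14, with 1 point per list and no point where a list held no peak. For H3K4me3 every member with 4 points but Pld6 lies higher in both P14 lists, and Piwil4 has no point.

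Peaks of the arginine marks were few at P7, when their lists held 15361 to 36145 peaks, against 18423 to 55908 at P14. H4R3me2a, the asymmetric mark that Prmt1 lays on histone H4, marked 1 of 10 members at P7 (Piwil2, background 15.3%) and 5 of 10 at P14 (Piwil2, Mov10l1, Pld6, Ddx4 and Henmt1; 49.0%). With lists of equal length the counts were 1 at P7 and 3 at P14, and with q at most 0.01 they were 0 and 2. The 3 Piwil2 summits at P7 lay 93, 2426 and 2318 bp after a transcript start, with fold enrichments of 3.79, 2.76 and 2.37, so the peaks of all lists but the first overlapped each other. At P14 the Piwil2 summits lay 127, 137 and 264 bp after it, with fold enrichments of 2.99, 3.76 and 3.37. Piwil2 was thus marked within 300 bp of its start in every P14 list of this mark. The best Pld6 peaks in the P14 lists that held one had summits 2770 and 2161 bp after a start and did not overlap.

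H3R2me2a marked 0 of 10 members at P7 (11.0%) and 6 of 10 at P14 (Piwil1, Piwil2, Piwil4, Mov10l1, Pld6 and Ddx4; 51.3%). H3R8me2a marked 1 of 10 at P7 (Mov10l1, 9.71%) and 1 of 10 at P14 (Ddx4, 33.0%), where the single P14 lists marked 2 and 6 members. The Mov10l1 peaks of the 2 P7 lists, chr15:89026308-89026657 and chr15:89023265-89023475, lay inside the gene and did not overlap. H4R3me1, the monomethyl mark, marked 0 of 10 at P7 (10.8%) and 2 of 10 at P14 (Piwil2 and Piwil4, 29.9%). In these marks the members' counts at P14 lay near or below the background. Asz1 and Gtsf1 had no promoter peak of an arginine mark in any list.

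H4R3me2s, the symmetric mark laid by Prmt5 and related enzymes, is the mark measured in both genotypes. At P7 it marked 1 of 10 members in WT (Mov10l1, background 17.8%) and 0 of 10 in Prmt1-dKO (9.82%), and at P14 2 of 10 in WT (Pld6 and Henmt1, 34.2%). The Mov10l1 summits of the 2 WT lists of P7 lay at -2723 bp and 130 bp from a start, so the lists did not share a site, and the Prmt1-dKO lists held none. In single Prmt1-dKO lists, 4 members (Piwil1, Mael, Ddx4 and Henmt1) had a peak in the first and 1 (Piwil4) in the second, against 27.5% and 23.1% of all genes. The single WT lists marked 1 and 2 members, against 33.1% and 33.7%. No member had a peak in both Prmt1-dKO lists, and the genotypes were not tested against each other.

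**Figure D5:**
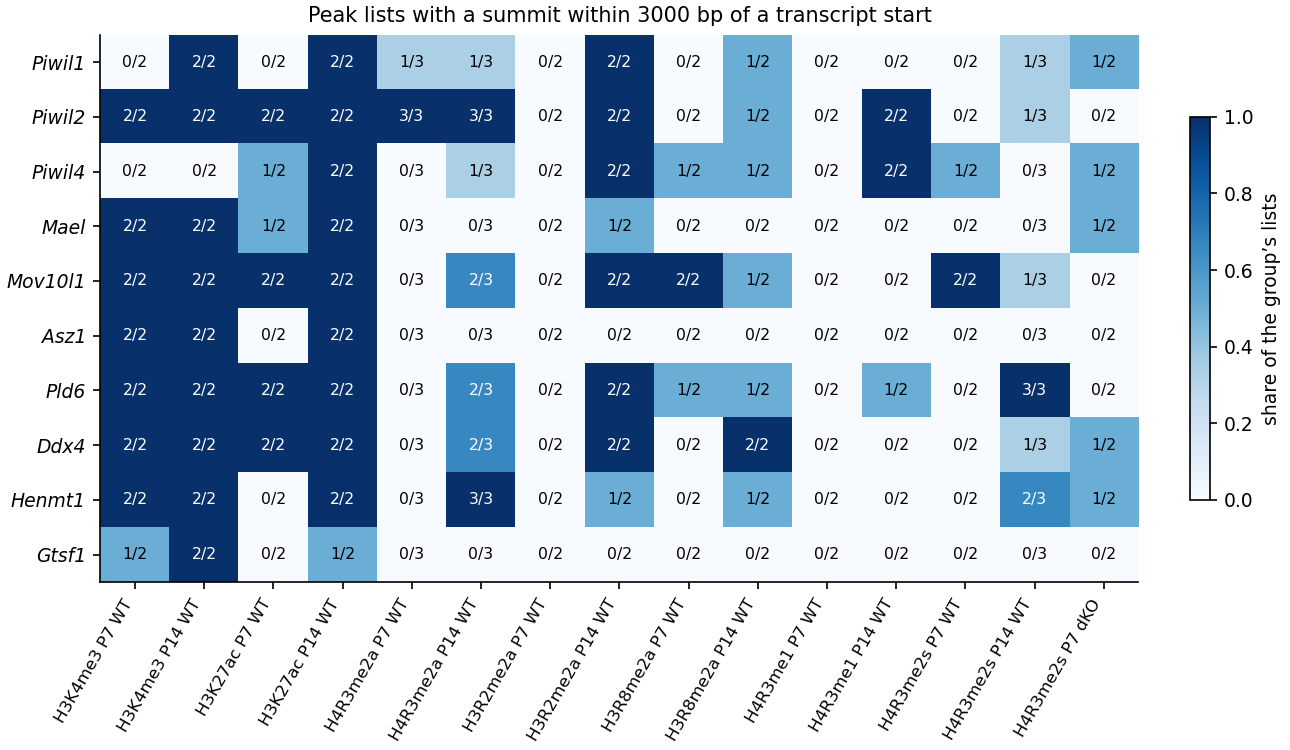
Number of lists of each group with a peak summit within 3000 bp of a transcript start of each member (rows), out of the lists of that mark, age and genotype (columns), with darker fill for a higher share. H3K4me3 and H3K27ac fill most rows at P14, and the arginine marks are sparse at P7.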

How the data were processed

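The 10 RNA libraries were trimmed by the authors with fastp 0.23.2, aligned to mm10 by STAR and quantified per gene by RSEM, of unstated version and annotation (neither is given in the sources used here). The deposited expected counts carry no normalization, and the deposited TPM and FPKM are scaled within a library. FPKM was not used. For the 33 peak lists, the authors ran MACS2 2.1.0 on each sample. The deposited columns hold a peak's fold enrichment (a ratio to local background) with its −log10 p and −log10 q. Read depth of the lists is unknown.

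Of 55401 gene identifiers, 55141 matched GENCODE vM21 and 260 did not. Expected counts were rounded, genes kept by filterByExpr (minimum 10 counts, total 15), and TMM factors computed. edgeR 4.0.16 (R 4.3.3) then gave quasi-likelihood p-values, adjusted by Benjamini-Hochberg over all genes tested (FDR), with a call at an FDR below 0.05. Bulk RNA-seq, Smart-seq2 and the 5 WT libraries had separate fits, and all 10 libraries one fit for the interaction. Standard errors are the log2 fold change divided by the root of its F statistic. The alternatives were DESeq2 1.42.0, RLE size factors, no filter on low counts, a replicate block and leaving out each library. The fits were tested on simulated data. A promoter reached 3000 bp from any transcript start to the peak summit. Here the alternatives were 1000 bp, a q of at most 0.01, lists of equal length and leaving out each list. Promoter sequences are RefSeq's for GRCm38.p6, and 9 of 10 members matched by symbol.

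All 10 members are named. Other pathway genes are named where called in a genotype comparison, and others are marked as chosen after their values were seen. Members and lists were chosen with earlier results of these data known. Other steps used Python 3.11.15, pandas 2.3.3, numpy 2.4.6 and matplotlib 3.10.9.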

Additional observations from a re-analysis of the deposited data

Results flagged for a closer look

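No member differed between whole testis and sorted spermatogonia in its genotype difference at an FDR below 0.05. Among the 21 other pathway genes, 7 did, by the interaction term of the joint edgeR fit of 10 libraries. Over all genes 19.0% of 19608 did, 2891 with a positive and 831 with a negative term. The 6 macrophage markers were at 0 in sorted WT and summed to 51.8 TPM in sorted Prmt1-dKO cells, and their part was not tested. The genotype difference was more positive in sorted cells for Tdrd1 (FDR = 0.00582), Tdrd6 (FDR = 0.0152), Tdrd9 (FDR = 0.0316), Pnldc1 (FDR = 0.0322), Spocd1 (FDR = 0.000126) and Dnmt3l (FDR = 0.0163), and more negative for Mybl1 (FDR = 0.0463), all from edgeR's quasi-likelihood test. Tdrd1, a Tudor protein that binds Piwil2, had log2 fold changes of -0.05 (SE 0.12) in whole testis and 0.99 (SE 0.18) in sorted cells. Pnldc1, the nuclease that trims piRNA ends, had 0.33 (SE 0.14) and 1.31 (SE 0.26), and Tdrd9, a helicase of the nuclear branch, had -0.11 (SE 0.12) and 0.62 (SE 0.21). In TPM, Tdrd9 had 20.0 and 25.1 in sorted WT and 19.2 and 22.4 in sorted Prmt1-dKO cells, so its ranges overlapped with the lower mean in Prmt1-dKO. The sorted TPM of Tdrd1 and Pnldc1 did not overlap and was higher in Prmt1-dKO. Spocd1 and Tdrd6 were at 0 counts in both sorted WT libraries. Assay and cell source cannot be told apart in this term. Groups of 2 or 3 samples were not tested for single aberrant libraries.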

How the results depend on the processing

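Dnmt3c and Tdrd6 rest on low counts, and Smart-seq2 has 2 libraries a group. Replicate numbers were not found to pair the bulk libraries (correlations of same-numbered deviations 0.0825, -0.221 and -0.119), and with the replicate block edgeR called 1 member in bulk RNA-seq in place of 2, Ddx4 (FDR = 0.0482), with Gtsf1 at 0.0526. In Smart-seq2 the block gave 0 calls and a median of 0.80. Without single libraries, the members called ranged from 0 (without any 1 WT library) to 4 (without the second Prmt1-dKO library) in bulk RNA-seq, with Gtsf1 also lost without the third Prmt1-dKO library, from 0 to 6 in Smart-seq2 (the most without the first WT library) and from 0 to 4 for the interaction. The share of all genes called moved with them: 5362 of 16971 in bulk RNA-seq without the second Prmt1-dKO library, 9191 of 17942 in Smart-seq2 and 8886 of 21394 for the interaction without the first sorted WT library. The calls between WT sorted cells and WT testis were 2 in every setting. Without single libraries, the members' median log2 fold change ranged from 0.0892 to 0.1721 in bulk RNA-seq and from 0.23 to 0.74 in Smart-seq2. DESeq2 called 1 member in Smart-seq2, and over all genes 3974 in bulk RNA-seq (edgeR 3158, with the block 1828) and 2468 in Smart-seq2 (edgeR 0).

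Some members changed sign. In bulk RNA-seq the log2 fold change of Henmt1 was -0.0024 with RLE size factors, -0.0197 with no filter and -0.0169 with DESeq2, and ranged from -0.1572 to 0.1237 without single libraries, as did Mov10l1 from -0.0759 to 0.0723 and Pld6 from -0.0002 to 0.1464. In Smart-seq2 Piwil2 was -0.0062 with RLE and -0.0104 with DESeq2, and Ddx4 -0.0139 and -0.0182. Without single libraries Piwil2 ranged from -0.0129 to 0.1312, Piwil4 from -0.2820 to 4.0605, Ddx4 from -0.1797 to 0.3254 and Gtsf1 from -0.2098 to 0.8390. As ratios of mean TPM, a scale added after seeing the data, Mov10l1 (0.0883), Pld6 (-0.1700) and Henmt1 (-0.1688) changed sign in bulk RNA-seq, and Piwil2 (-0.2743), Piwil4 (-0.0521), Ddx4 (-0.1710) and Gtsf1 (-0.0154) in Smart-seq2. RLE moved the median of all genes by over 0.1 for the interaction only, from 0.22 to 0.10. The cause was not tested.

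Of the promoter counts, those of H3K4me3 held within 1.5 times in every setting. With 1000 bp, 0 members were marked at P7 by H4R3me2a, H3R8me2a or H4R3me2s in WT. With q at most 0.01, 0 were marked at P7 by those marks or H3K27ac, 0 at P14 by H3R8me2a, H4R3me1 or H4R3me2s, and 2 at P14 by H4R3me2a. With lists of equal length, 0 were marked at P7 by H3R8me2a or H4R3me2s in WT, 3 at P14 by H4R3me2a, and 1 each at P14 by H4R3me1 and H4R3me2s. Without single lists the counts were 1 to 3 (P7 H3R8me2a), 1 to 2 (P7 H4R3me2s, WT), 1 to 4 (P7 H4R3me2s, Prmt1-dKO), 3 to 3 (P14 H4R3me2a), 2 to 6 (P14 H3R8me2a) and 1 to 2 (P14 H4R3me2s). With 1 of 2 lists left, the count is that of the list kept.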
